A study of Mus musculus with 42 samples.

Results

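The genes of heparan sulfate synthesis read here were B3galt6, Extl2, Extl3, Ext1, Ext2, Ndst1, Ndst2, Ndst3, Glce and Hs2st1. Every probe whose gene name on the array was one of these symbols was taken, which gave 17 probes of 41174 and 10 genes of 21186. RNA of aorta and of skeletal muscle was measured in adult male mice of 7 groups, with 3 single-colour Agilent arrays for each group and tissue and 42 arrays in all. Healthy C57 mice formed group G, and the other 6 groups were KK/Ay mice, which carry the yellow agouti allele and become diabetic spontaneously, so that strain and diabetes cannot be told apart in a comparison with group G. The diabetic group (A) and group G received saline. In the macroangiopathy group (C) the KK/Ay mice were fed a high-fat diet, were given L-NAME, which blocks nitric oxide synthase, and then received saline. The SHENQI (B), yangyinyiqi (D), huoxue (E) and rosiglitazone (F) groups carried the same diet and inhibitor model as group C and were given the named herbal preparation or drug by gavage.

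Heparan sulfate is a long sulfated sugar chain carried by core proteins such as syndecans, glypicans and perlecan. B3galt6 adds a galactose to the linker that joins chain and protein, Extl3 adds the sugar that commits the linker to heparan sulfate, and Ext1 and Ext2 lengthen the chain together, while Extl2 can modify the linker so that the chain is not lengthened. The Ndst enzymes replace acetyl groups on the nitrogen with sulfate, Glce turns glucuronic into iduronic acid, and Hs2st1 adds sulfate to that acid. In artery wall and muscle the finished chains hold growth factors and lipoprotein lipase.

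Levels are normalized log2 intensities, and they can be compared between arrays for the same gene but not between genes, because each probe binds with its own strength. The probes are 60 bases long. Those of Ext1 and Ndst3 are shown, since Ext1 had the largest difference between the tissues among the 10 genes and Ndst3 was called in the most comparisons and was the member with a whole set, huoxue muscle, not well above background. Both sequences were read from the deposited files.
Ext1: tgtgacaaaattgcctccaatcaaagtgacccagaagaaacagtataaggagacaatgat
Ndst3: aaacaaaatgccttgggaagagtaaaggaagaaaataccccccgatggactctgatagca
The Ext1 probe lies at chr15:52904855-52904914 and that of Ndst3 within chr3:123231845-123234057, both on the minus strand of build mm9 of the array design. The Ndst3 range of 2213 bases is longer than the probe, which is therefore split over the genome, as a probe across an exon junction is. The other single probes lie at chr4:155365378-155365437 (B3galt6), chr2:93535906-93535965 (Ext2), chr3:115731587-115731646 (Extl2) and chr14:21543258-21543317 (Ndst2). Extl3 and Hs2st1 had 2 probes each, Glce 3 and Ndst1 4, and the probes of a gene were averaged. Exons and untranslated regions were not assigned, as no annotation of this build was used here.

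The nonagouti gene a, which the yellow allele switches on, was not well above background on any healthy array (5.37 to 5.57) and was at 8.77 or more on all others, as the strain labels require. Between 53.8% and 77.63% of probes per array were well above background, lowest on slide 11. Slides 1 and 3 stood apart, each scanned on a day of its own. Slide 11 stood apart by these shares, but it was scanned on the same day as slides 5, 7 and 8. It held all 3 huoxue muscle arrays, and other slides held whole sets too. Slides 1, 3 and 11 were still given 1 batch term in some fits, a choice made after the data were seen. Healthy aorta replicate 1 also stood apart, with correlations of 0.8806 and 0.9182 with the other arrays of its set and a mean of 5 smooth muscle markers (Myh11, Acta2, Tagln, Cnn1 and Smtn) of 9.66, where the other aorta arrays lay between 12.39 and 14.63. Aorta arrays also held fat markers, with a median aorta excess over muscle of 6.41 for 3 brown adipocyte genes and of 2.77 for 5 adipocyte genes, and the mean of 7 skeletal muscle markers on aorta arrays ran from 7.78 to 15.65, highest on diabetic aorta replicate 2, and that of 4 cardiac markers from 6.42 to 12.8. The aorta samples were not artery wall alone. The labels do not say whether both tissues came from the same mice, and with 3 arrays in a set the number of arrays limits the precision.

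Between the tissues, Ext1 was the member that differed most, at 2.44-fold higher intensity in aorta, and Hs2st1 was 1.74-fold and Extl2 1.37-fold higher in skeletal muscle. Over all 42 arrays, 4 members were higher in aorta (Ext1, Ndst3, Ndst2 and Glce) and 3 in muscle (Hs2st1, Extl2 and Ndst1) at a limma adjusted P below 0.05, and B3galt6, Ext2 and Extl3 did not pass. These 7 of 10 members stand against 76.4% of all 16167 genes tested. The Ext1 level ran from 8.52 over a median of 9.75 to 10.34 in aorta and from 8.17 over 8.39 to 8.68 in muscle. Only the lowest healthy aorta array fell inside the muscle range. The log2 difference was 1.29 (SE 0.12, adjusted P = 1.325e-12). Hs2st1 ranged from 6.97 over 7.14 to 7.37 in aorta and from 7.58 over 7.97 to 8.47 in muscle, and the tissues did not overlap (log2 difference -0.80, SE 0.05, adjusted P = 1.185e-17). For Extl2 the ranges overlapped, from 8.09 over 8.49 to 8.89 in aorta and from 8.06 over 8.96 to 9.49 in muscle (-0.46, SE 0.08, adjusted P = 1.35e-06).

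The remaining tissue differences were small. Ndst3 was 0.27 (SE 0.10) higher in aorta, where all 21 arrays were well above background against 9 of 21 in muscle. In the huoxue group no muscle array was. There the mean aorta level was 1.21-fold above the higher of the muscle level and the dimmest signal above background. The huoxue difference between the tissues did not pass (log2 difference 0.27, SE 0.18, limma adjusted P = 0.2551). Ndst2 was 0.17 (SE 0.04) and Glce 0.14 (SE 0.05) higher in aorta, and Ndst1 was 0.16 lower (log2 difference -0.16, SE 0.05). Glce turned to -0.15 with the processed signal and Ndst1 to 0.17 with its brightest probe, so neither direction was settled.

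**Figure D1:**
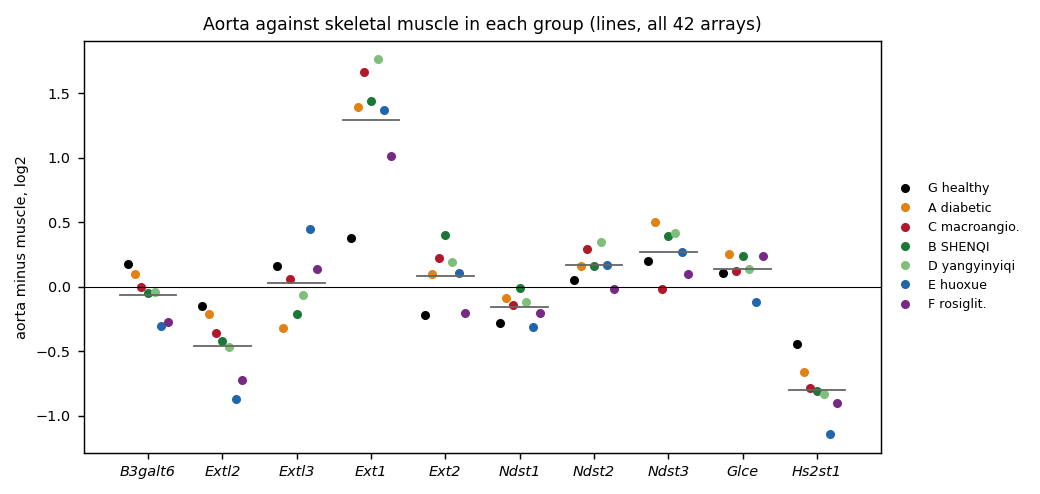
Difference in log2 intensity between aorta and skeletal muscle (vertical axis) for each member (horizontal axis), as 1 point for each of the 7 groups, with a line for all 42 arrays. Ext1 lies between 0.38 in healthy mice and 1.76 in the yangyinyiqi group, and Hs2st1 lies below 0 in every group.

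Within groups, the Ext1 difference between aorta and muscle was 0.38 (SE 0.27, adjusted P = 0.4537) in healthy mice and from 1.01 to 1.76 in the 6 KK/Ay groups, with adjusted P of 0.02135 or less in each. The Hs2st1 difference was -0.44 in healthy mice (adjusted P = 0.1977) and between -0.66 and -1.14 in the KK/Ay groups. Extl2 ran from -0.15 in healthy mice to -0.87 in the huoxue group. The order of the group means in aorta for Ext1 was macroangiopathy, yangyinyiqi, diabetic, huoxue, SHENQI, rosiglitazone and healthy, from 10.04 to 8.99, and neighbours in this order differed by less than the larger SD of the pair.

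Diabetic against healthy mice (A vs G) asks what the KK/Ay background changes before any diet or drug. Ext2, a subunit of the enzyme that lengthens the chain, and Extl3, which starts it, were higher in diabetic mice, by 1.48-fold and 1.44-fold over both tissues. No member was lower. The 2 members called at an unadjusted P below 0.05, the threshold of the study's methods and the meaning of "called" below, stand against 22.1% of 14804 genes, and no member passed after adjustment, where 4.51% of genes did. The median log2 difference was 0.16 over the members and 0.03 over all genes.

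Ext2 in aorta was at 11.80, 11.78 and 12.04 on the diabetic arrays and at 10.78, 11.33 and 11.34 on the healthy ones. In muscle the values were 11.92, 11.68 and 11.73 against 11.34, 11.70 and 11.07. The aorta sets did not overlap, while the highest healthy muscle array exceeded the lowest diabetic one. The log2 difference was 0.57 (SE 0.15, limma adjusted P = 0.05219). In the fit of each tissue alone it was 0.73 in aorta (adjusted P = 0.3099) and 0.41 in muscle (adjusted P = 0.2586), and only the first was called. Slide 1 held 1 diabetic and 2 healthy aorta arrays, healthy replicate 1 among them, and gave a difference of 0.74.

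Extl3 in muscle was at 8.91, 9.30 and 8.86 on diabetic arrays and at 8.25, 8.30 and 8.21 on healthy ones, so that all 3 diabetic arrays lay above all healthy arrays. In aorta the values were 8.66, 8.80 and 8.66 against 8.0, 8.88 and 8.37, and the sets overlapped. The difference was 0.53 (SE 0.16, adjusted P = 0.08502) over both tissues. In muscle alone it was 0.77 (SE 0.16, adjusted P = 0.0451), where 22.2% of genes were called without adjustment and Extl3 was the only member among them. With the brighter of its 2 probes alone the muscle difference was 0.60 (adjusted P = 0.1599), since the dimmer was well above background on 1 of 3 healthy muscle arrays. In the same arrays 3 of 3 red cell markers were lower (median -0.98), 2 of 2 brown adipocyte markers higher (1.47) and 2 of 4 macrophage markers lower (-0.60), and their part in the Extl3 difference was not tested.

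Ext1 was called in aorta alone, without adjustment. Its aorta levels were 10.28, 9.55 and 9.66 in diabetic and 8.52, 9.41 and 9.05 in healthy mice, with no overlap, and the difference was 0.84 (SE 0.31, adjusted P = 0.3893). With Ext2 it was 1 of 2 members called in aorta, where 11.7% of genes were. Without healthy aorta replicate 1 the Ext1 difference was 0.60 (adjusted P = 0.3933) and no longer called, and that of Ext2 was 0.54 (adjusted P = 0.2278) and still called. The 5 smooth muscle markers moved with these values: their mean lay between 13.34 and 14.14 on diabetic and between 9.66 and 13.47 on healthy aorta arrays, 1 of the 5 was called, and the median difference was 1.87. All 3 red cell markers were called higher in diabetic aorta (median 1.43), as was 1 of 5 fibroblast markers (0.51). The part of these lists in the Ext1 and Ext2 differences was not tested, and in bulk tissue fewer cells of a type and less RNA per cell cannot be told apart.

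Macroangiopathy against healthy mice (C vs G) shares the healthy arrays with the previous comparison, so these values are not independent. Extl3 was 1.44-fold and Ext2 1.43-fold higher in group C, and Ext1 was 2.07-fold higher in aorta. The 2 members called stand against 24.3% of 15734 genes, and after adjustment 1 member, Extl3, stands against 5.17%. The macroangiopathy arrays of Extl3 read 8.97, 8.89 and 8.79 in aorta and 8.95, 8.79 and 8.75 in muscle. All 3 muscle arrays lay above the healthy ones, whereas in aorta the sets overlapped, with the highest healthy array at 8.88. The difference was 0.52 (SE 0.13, limma adjusted P = 0.0469). The adjusted P ranged from 0.006498 to 0.1091 when each array was left out in turn, and from 0.001397 to 0.3564 over the other alternatives, and the log2 difference was 0.96 with the processed signal. In the fit of all 42 arrays it was 0.52 (adjusted P = 0.001397), and a batch term for slides 1, 3 and 11 in that fit made it 0.32 (adjusted P = 0.08649). In that fit Ext2 passed after adjustment without the batch term (0.51, adjusted P = 0.002978) and with it (0.56, adjusted P = 0.01147). Ndst2 (-0.27, adjusted P = 0.04705) and Ndst3 (-0.72, 0.0206) passed only with it, against -0.2 (0.05463) and -0.32 (0.2502) without. With the term 28.5% of all genes were called without adjustment, and the share after adjustment was not counted. Ndst3 on the batch slides minus the other slides was uneven, from -1.1 in healthy muscle to -0.02 in SHENQI aorta.

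For Ext2 the macroangiopathy levels were 11.60, 11.98 and 12.07 in aorta, all above the healthy set, and 11.75, 11.43 and 11.81 in muscle, which overlapped with it. Both tissues together gave 0.51 (SE 0.16, adjusted P = 0.09017). Ext1 stood at 10.06, 9.97 and 10.09 in macroangiopathy aorta, above every healthy aorta array, and at 8.39, 8.28 and 8.49 in muscle, below all 3 healthy muscle arrays (8.60, 8.57 and 8.68). Its change was 1.05 (SE 0.25, adjusted P = 0.1472) in aorta and -0.23 (SE 0.12, adjusted P = 0.3184) in muscle, and over both tissues it did not pass (0.41, adjusted P = 0.2953). In aorta alone Ext1 and Ext2 were called, against 18.6% of genes, and in muscle alone Extl3, against 21.9%.

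The Ext1 change in muscle minus that in aorta was -1.28 (SE 0.28, adjusted P = 0.1218) for C vs G. It was -1.01 (adjusted P = 0.5496) for A vs G. In the fit of all 42 arrays the first of these had an adjusted P of 0.04853, and without healthy aorta replicate 1 it was -1.04 with an adjusted P of 0.03853. All 5 smooth muscle markers were called higher in macroangiopathy aorta, with a median of 2.47 and means between 14.15 and 14.54, and so were all 3 red cell markers (median 1.75) and 1 of 5 fibroblast markers (0.42). Over the 21 aorta arrays Ext1 rose and fell with the marker mean (Pearson r = 0.87, Spearman rho = 0.89, and r = 0.91 without the 2 arrays farthest from the median), and Ext2 less closely (r = 0.79, rho = 0.62, and 0.61 without those 2 arrays). With fibroblast markers r was 0.74 for Ext1 and 0.76 for Ext2, and with red cell markers 0.67 and 0.73. These correlations describe arrays that share groups and slides, and the part of the markers was not tested. In skeletal muscle arrays, r with the smooth muscle markers was -0.10 for Ext1 and 0.13 for Ext2.

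**Figure D2:**
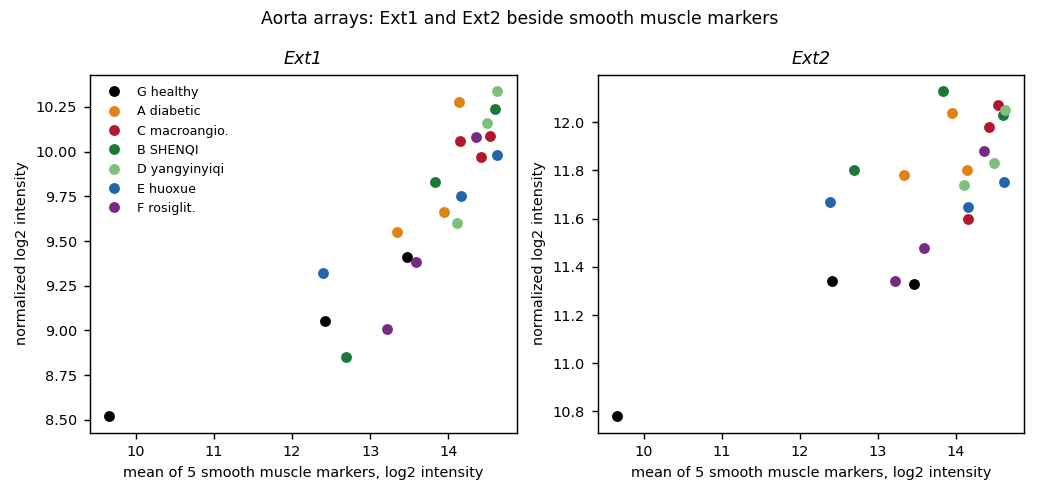
Normalized log2 intensity of Ext1 and Ext2 (vertical axes) against the mean log2 intensity of 5 smooth muscle markers (horizontal axes) on the 21 aorta arrays, coloured by group. Healthy aorta replicate 1 lies at the lower left, with a marker mean of 9.66 and Ext1 at 8.52.

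Macroangiopathy against diabetic mice (C vs A) asks what the diet and L-NAME change within the KK/Ay strain. The groups were on different slides in both tissues, so slide and model cannot be told apart. B3galt6, which builds the linker, and Ndst3, an N-deacetylase/N-sulfotransferase, were lower in group C, and no member was higher. These 2 of 10 members stand against 5.12% of 15717 genes, and no gene passed after adjustment (0% of genes). Ndst3 in aorta read 6.05, 6.04 and 5.85 in group C and 6.43, 7.49 and 6.76 in group A, with no overlap. In muscle it read 5.98, 6.10 and 5.92 against 6.14, 6.96 and 6.08, and only 1 of the 3 group C muscle arrays was well above background. Ndst3 fell by 0.65 on the log2 scale (SE 0.20, adjusted P = 0.8878), and it was the only member called in aorta alone (adjusted P = 0.9767, with 3.79% of genes called). No member was called in muscle alone, where 7.23% of genes were.

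B3galt6 was at 7.61, 7.47 and 7.35 in macroangiopathy aorta and 7.95, 7.79 and 7.60 in diabetic aorta. Muscle gave 7.46, 7.39 and 7.57 against 7.72, 7.51 and 7.81. In both tissues 1 array of group C lay inside the diabetic range. Over both tissues B3galt6 fell by 0.26 (SE 0.09, adjusted P = 0.9164). In aorta 2 of 5 endothelial markers were called lower (median -0.27) and 2 of 5 smooth muscle markers higher (0.6). In muscle 3 of 3 red cell markers were called higher (0.56) and 2 of 4 macrophage markers lower (-0.22). Over the 21 aorta arrays B3galt6 correlated at 0.58 with the endothelial and at 0.63 with the adipocyte list. The part of these lists was not tested. No slide held arrays of both groups, so a value within a slide could not be had, and both calls held when any single array was left out. Without diabetic aorta replicate 2, which had the highest Ndst3 and the highest skeletal muscle markers of the aorta arrays, Ndst3 was at -0.49 (adjusted P = 0.9959) over both tissues and -0.62 in aorta, and both were still called.

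**Figure D3:**
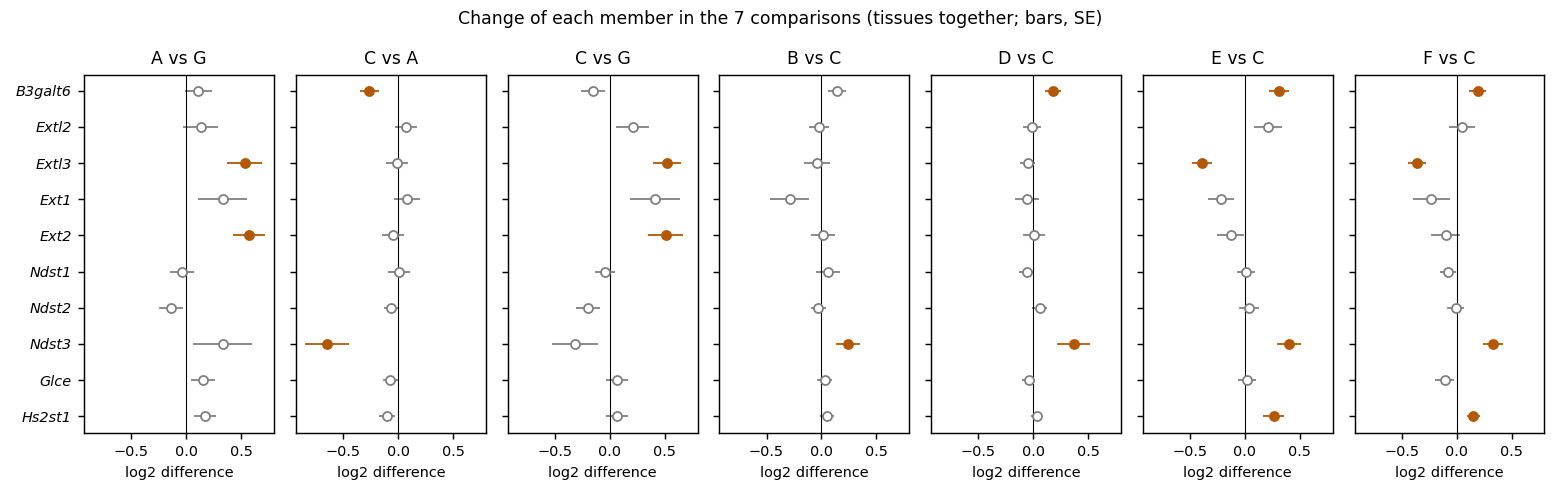
Log2 difference (horizontal axes) of each member (vertical axis) in the 7 comparisons over both tissues, with bars for SE and filled points where the unadjusted P was below 0.05. B3galt6 and Ndst3 lie below 0 in C vs A and above 0 in the 4 comparisons of a treatment with group C.

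The treatments were each set against group C, so the 4 comparisons share its 6 arrays, and a low value there raises all of them. B3galt6 and Ndst3 under yangyinyiqi, and these and Extl3 under rosiglitazone, are the genes that the study lists from these same arrays for heparan sulfate proteoglycan synthesis, so their calls below are not independent evidence. Rosiglitazone activates PPARgamma, and huoxue and yangyinyiqi are herbal preparations.

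Yangyinyiqi (D vs C) gave higher B3galt6 and Ndst3, and the other 8 members were not called. The 2 members called stand against 3.41% of 15882 genes, and no gene passed after adjustment (0%). B3galt6 was at 7.63, 7.53 and 7.72 in aorta and at 7.54, 7.71 and 7.77 in muscle. These arrays overlapped with group C in both tissues. The log2 difference was 0.18 (SE 0.07, adjusted P = 0.9989), and on slides shared with group C it was 0.16 in aorta and 0.10 in muscle. For Ndst3 the yangyinyiqi levels were 6.12, 7.13 and 6.47 in aorta, all above group C, and 5.97, 6.24 and 6.24 in muscle, where 1 of 3 arrays was well above background. The difference was 0.37 (SE 0.15, adjusted P = 0.9989), and within slides it was 0.14 in aorta and 0.23 in muscle. Neither tissue alone gave a call, against 1.4% of genes in aorta and 3.81% in muscle. Leaving out macroangiopathy aorta replicate 3 ended both calls, with B3galt6 at 0.15 and Ndst3 at 0.32, as did leaving out yangyinyiqi aorta replicate 3 (0.16 and 0.37) or yangyinyiqi muscle replicate 3 (0.15 and 0.38). B3galt6 was also lost without macroangiopathy muscle replicate 2 (0.16), and Ndst3 without macroangiopathy aorta replicates 1 or 2 (0.36 each) or yangyinyiqi muscle replicate 2 (0.38).

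Rosiglitazone (F vs C) gave lower Extl3 and higher Ndst3, B3galt6 and Hs2st1. The 4 members called stand against 12% of 15834 genes, and none passed after adjustment, where 0.00632% of genes, a single gene, did. Extl3 in muscle read 8.38, 8.40 and 8.49, below all 3 group C arrays, and 8.31, 8.67 and 8.70 in aorta, also below them. It fell by 0.36 (SE 0.08, limma adjusted P = 0.1506). In muscle alone the log2 difference was -0.41 (adjusted P = 0.03422), where 29.7% of genes were called without adjustment. That value rests on the dimmer of the 2 Extl3 probes, which was not well above background on any rosiglitazone muscle array: the brighter alone gave -0.16 (adjusted P = 0.3975), which was not called. In aorta alone it was -0.32 (adjusted P = 0.7102) and not called. Of the marker lists, 2 of 5 smooth muscle markers were called lower in aorta (median -0.47), and 2 of 4 macrophage markers higher in muscle (0.29). Their part was not tested.

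The other 3 rose by less. Ndst3 under rosiglitazone was at 6.47, 6.10 and 6.54 in aorta and 6.31, 6.20 and 6.30 in muscle, above every group C array of the tissue, and 2 of the 3 muscle arrays were well above background. Its difference was 0.33 (SE 0.09, adjusted P = 0.1733), and in aorta alone, where 7.11% of genes were called, it was the only member called (0.39, adjusted P = 0.6975). B3galt6 read 7.48, 7.55 and 7.55 in aorta, inside the group C range, and 7.85, 7.84 and 7.70 in muscle, above it (0.19 over both, SE 0.08, adjusted P = 0.3677). Hs2st1 was at 7.20, 7.14 and 7.25 in aorta and 8.05, 8.15 and 8.08 in muscle, against 7.11, 7.10 and 7.11 and against 7.85, 7.84 and 7.98 in group C. Its sets did not overlap in either tissue (0.15, SE 0.06, adjusted P = 0.3644). Muscle alone gave 4 of 9 members called, Extl3, B3galt6 (0.33), Extl2 (0.23) and Hs2st1 (0.20), beside 29.7% of genes. The limma adjusted P was 0.05758 for B3galt6, 0.1037 for Extl2 and 0.1408 for Hs2st1, so these did not pass after adjustment. With its brighter probe alone Hs2st1 was at 0.17 in muscle (adjusted P = 0.217) and was not called. Over both tissues B3galt6 lost its call without macroangiopathy aorta replicate 3, macroangiopathy muscle replicates 1 or 2, or rosiglitazone muscle replicates 1 or 2 (0.16 to 0.18), and Hs2st1 without macroangiopathy muscle replicates 1 or 2, rosiglitazone aorta replicate 3, or rosiglitazone muscle replicates 2 or 3 (0.13 to 0.14).

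Huoxue (E vs C) gave the same directions for the same 4 members. Extl3, B3galt6 and Hs2st1 had the larger differences in muscle, and Ndst3 in aorta (0.55 against 0.26 in muscle). None of these differences between tissues passed after adjustment, where 479 of 15719 genes did. The 4 members called stand against 14.3% of 15719 genes, and no gene passed after adjustment (0%). Extl3 in muscle was at 8.17, 8.31 and 8.25 and in aorta at 8.84, 8.60 and 8.65. The muscle set lay below group C, and in aorta 1 of 3 arrays lay inside its range. Extl3 fell by 0.39 (SE 0.09, adjusted P = 0.1876). B3galt6 was at 7.97, 7.82 and 8.02 in muscle, above group C, and 7.81, 7.54 and 7.56 in aorta (0.31 over both, SE 0.09, adjusted P = 0.2132). Hs2st1 read 8.47, 8.20 and 8.31 in muscle, above group C, and 7.37, 6.97 and 7.22 in aorta, on both sides of it (0.26, SE 0.10, adjusted P = 0.2687), and its call was lost without macroangiopathy muscle replicates 1 or 2 (0.23 and 0.22) or huoxue muscle replicate 1 (0.20). Ndst3 was at 6.34, 6.81 and 6.43 in aorta, above group C, and no huoxue muscle array was well above background (0.40, SE 0.11, adjusted P = 0.2042).

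In muscle alone the huoxue differences were -0.59 for Extl3 (adjusted P = 0.003314), 0.46 for B3galt6 (0.008468), 0.46 for Extl2 (0.006786) and 0.43 for Hs2st1 (0.01268). The dimmer Extl3 probe was not well above background on these arrays, and the brighter alone gave -0.39 (adjusted P = 0.06806). Extl2 had muscle levels of 9.49, 9.30 and 9.39 against 8.91, 8.89 and 9.0 in group C. These 4 of 9 members tested stand against 45.5% of the 13413 genes tested in muscle. In the same arrays 4 of 7 skeletal muscle markers were lower and 1 higher (median -0.17). Over the 21 muscle arrays the mean of this list correlated at 0.66 with Extl3 (0.53 without the 2 arrays farthest from the median). It correlated at -0.43 with B3galt6 (-0.68), at -0.37 with Hs2st1 (-0.55) and at -0.15 with Extl2 (-0.65). Spearman rho was 0.62, -0.44, -0.27 and -0.27 in this order. Other lists came about as close or closer. Macrophage markers gave r of -0.73 with Extl2 (-0.2 without their 2 farthest arrays) and -0.62 with Hs2st1 (-0.42). Red cell markers gave -0.62 with Extl3 (-0.58), and brown adipocyte markers -0.47 with B3galt6 (-0.64). These values describe arrays that share groups and slides, and the part of any list was not tested. All 3 huoxue muscle arrays and 1 rosiglitazone muscle array were on slide 11, and the other 2 rosiglitazone muscle arrays were on slide 3, while group C was on neither, so slide and treatment cannot be told apart in muscle. In aorta alone 1 member, Ndst3, was called (0.55, adjusted P = 0.9998), where 2.08% of genes were. The largest of the differences between tissues was that of Extl2, 0.50 higher in muscle (adjusted P = 0.2859). A batch term for slides 1, 3 and 11 in the fit of 42 arrays was estimated only from sets that lay partly on these slides. Those were healthy aorta, healthy muscle, diabetic aorta and SHENQI aorta, with arrays on slides 1 or 3 but none on slide 11. The term therefore cannot separate slide 11 from treatment. With it, all 4 members were called under huoxue, where 5.03% of genes were, with Extl3 at -0.23 (adjusted P = 0.9822). Under rosiglitazone that fit called Ndst3 alone (0.63, adjusted P = 0.2543), with 8.23% of genes, while the same fit without the batch term called the other 3 and not Ndst3 (0.33, adjusted P = 0.7492).

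SHENQI (B vs C) gave 1 called member, Ndst3, against 2.71% of 15656 genes, and no gene passed after adjustment (0%). Ndst3 read 6.42, 6.36 and 6.51 in aorta, above the group C arrays, and 6.30, 5.80 and 6.0 in muscle, around them, with 1 of 3 muscle arrays well above background. The difference was 0.24 (SE 0.11, adjusted P = 0.9998). In aorta alone it was 0.45 (adjusted P = 0.9998, with 1.61% of genes called), and in muscle, where no member was called and 2.94% of genes were, the value within slide 7 was -0.14. The call was lost when any of 9 of the 12 arrays was left out. Extl3, lower under rosiglitazone and huoxue, was at -0.04 (SE 0.12) under SHENQI and -0.05 (SE 0.07) under yangyinyiqi.

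**Figure D4:**
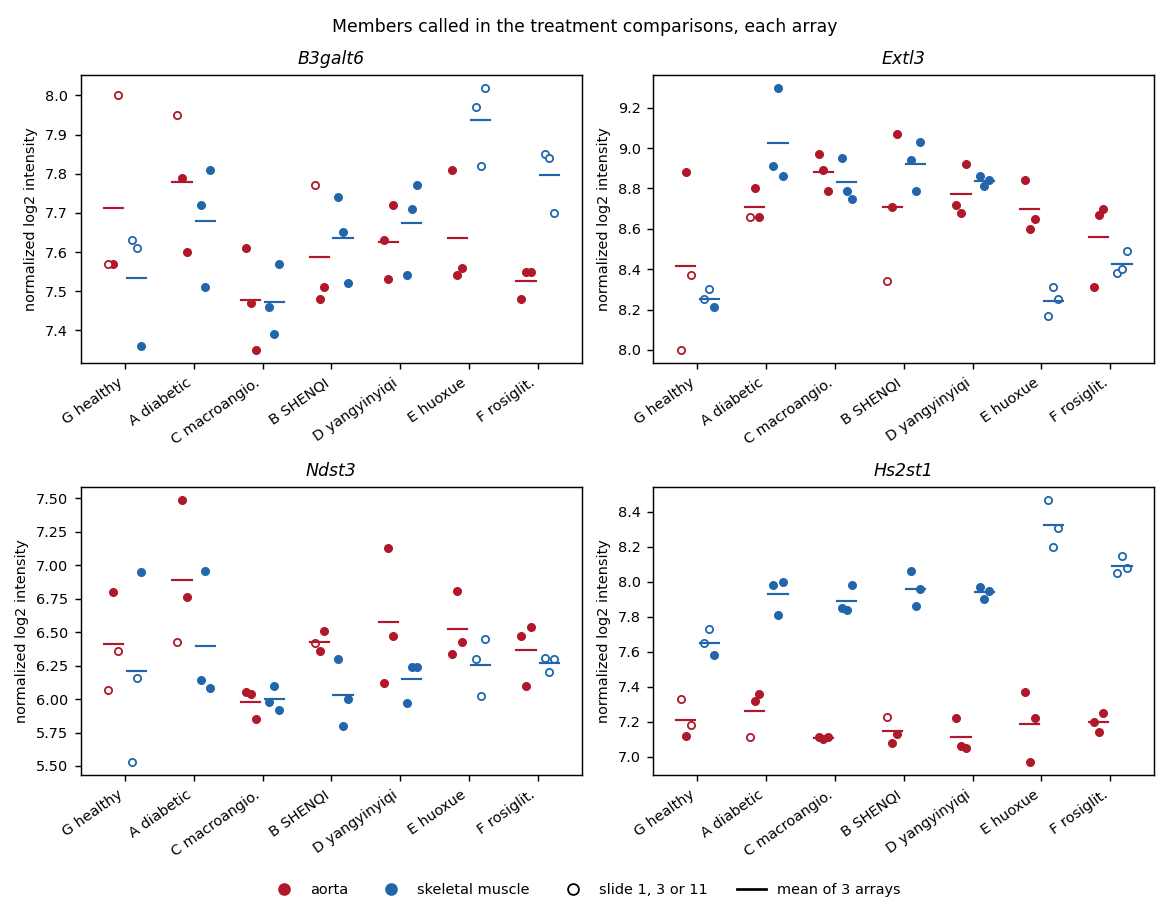
Normalized log2 intensity (vertical axes) of B3galt6, Extl3, Ndst3 and Hs2st1 on each array by group, aorta in red and skeletal muscle in blue, with open points for slides 1, 3 and 11 and lines for means of 3 arrays. Huoxue muscle has the lowest Extl3 mean of the muscle sets, at 8.24, and the highest Hs2st1 mean, at 8.32.

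Per comparison over both tissues, 2.71% to 24.3% of all genes were called and 0% to 5.17% passed after adjustment. The 7 comparisons share arrays of groups G, A and C, so their tests are not independent. Over the 7 comparisons 17 of 70 tests of a member passed without adjustment and 1 after it. Ndst1, Ndst2, Glce, Ext1 and Extl2 passed in none of them over both tissues. Ndst1, the main N-sulfating enzyme of most tissues, was the steadiest in the average of its probes, with differences from -0.08 to 0.06, though its probes differed in direction. Ndst2, known for heparin synthesis in mast cells, ran from -0.20 to 0.06. Extl2 ran from -0.02 to 0.21.

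Where a gene had several probes they did not always move together. Both Extl3 probes were higher in C vs G (0.50 for the brighter and 0.54 for the dimmer) and lower in F vs C (-0.25 and -0.48), and the dimmer was not well above background on any huoxue or rosiglitazone muscle array. Of the Hs2st1 probes, 1 was called under huoxue (0.29, adjusted P = 0.1766) and under rosiglitazone (0.20, adjusted P = 0.2601), and the other read 0.22 and 0.09. The brightest Glce probe was higher in A vs G (0.39, adjusted P = 0.1013) and in C vs G (0.30, adjusted P = 0.1666), while the next read 0.10 and 0.06, and the last was well above background on 1 of 42 arrays. The averaged Glce values (0.15 and 0.07) therefore mix probes that correlated at -0.26 to 0.40. Of the 4 Ndst1 probes, 1 was lower in F vs C (-0.23, adjusted P = 0.2754). In A vs G they read 0.13, 0.15, -0.20 and -0.24, none of them called, and they correlated at 0.12 to 0.44. The small averaged Ndst1 differences therefore also mix probes of unlike direction.

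Other genes of the pathway were read from lists of 61 genes, without the members. In A vs G 11 were higher and 2 lower of 52 tested, which is 25% beside 22.1% of all genes, and 4 passed after adjustment, 7.69% beside 4.51%. Gpc1, a glypican core protein, was higher by 1.13 (SE 0.21, adjusted P = 0.01141) and Hs6st2, a 6-O-sulfotransferase, by 0.51 (SE 0.12, adjusted P = 0.03915). Sdc4, a syndecan, fell by 1.65 (SE 0.19, adjusted P = 0.0005663), and Hgsnat, a lysosomal enzyme that breaks the chain down, fell by 0.71 (SE 0.15, adjusted P = 0.02172). In C vs G the same 4 genes passed after adjustment, at 0.88, 0.41, -1.52 and -0.72, and 13 were higher and 3 lower of 55 without it (29.1% beside 24.3% of all genes). Over both tissues Sdc4 and Gpc1 changed by more than any of the 10 members in both comparisons.

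Against group A, group C had 0 higher and 3 lower of 55 pathway genes without adjustment (5.45% beside 5.12% of all genes), with the smallest P for Sulf2, which removes sulfate from finished chains (-0.21, adjusted P = 0.9589). SHENQI and yangyinyiqi each had 1 higher and 1 lower (3.64% beside 2.71% and 3.41%). These were Hs6st1 (0.27) and the syndecan Sdc3 (-0.23) under SHENQI, and Ugdh, which makes the glucuronic acid precursor (0.21), and Sdc3 (-0.20) under yangyinyiqi. Huoxue had 3 higher and 7 lower (18.2% beside 14.3%), led by Slc35b3, a carrier of the sulfate donor (0.38, adjusted P = 0.2105), and Chst12, a chondroitin sulfotransferase (-0.87, adjusted P = 0.2042). Rosiglitazone had 5 higher and 7 lower (21.8% beside 12%), led by Ndst4 (0.43, adjusted P = 0.2692) and Chst12 (-0.58, adjusted P = 0.2173). None of these passed after adjustment.

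As a description of likeness, each member well above background on all 42 arrays was set against the 11290 genes of that kind after the mean of each tissue was subtracted. Ext1 was most like Nox4, which makes hydrogen peroxide in vessel wall (r = 0.93), and Ext2 most like Gja4, a gap junction gene of arteries (0.83). Extl3 was most like Adck1 (0.87), Extl2 like Itfg1 (0.83), Hs2st1 like Cul2 (0.83), Ndst2 like Fbxo42 (0.80), B3galt6 like Mrpl36 (0.79), Ndst1 like Jmy (0.77) and Glce like Tal1 (0.66). Among the members the closest pairs were Extl2 with Hs2st1 (0.65), B3galt6 with Hs2st1 (0.61) and Ext1 with Ext2 (0.59). The arrays share groups, tissues and slides, so these values carry no test.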

How the data were processed

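The authors put total RNA of 42 samples on Agilent 4x44k mouse arrays, with 1 dye. The deposited scanner files give the intensity of 45018 spots per array (1639 controls) as medians of spot and local background, from Feature Extraction 10.7.3.1, with marks for spots well above background. Also deposited was a log2 value table from the authors, which served as an alternative. Their methods name background correction and quantile normalization in limma for the array data. Groups were taken from the sample labels.

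Local background was removed with normexp (offset 0) in limma 3.58.1, under R 4.3.3. Control spots were dropped, quantile normalization was run across all 42 arrays, and log2 was taken. Irregular spots were masked after it, a step the written plan did not name. Spots of a probe and probes of a gene were averaged. Testing required a probe that the scanner software marked well above background on each of the 3 arrays in 1 or more of the sets compared. Each comparison used lmFit and eBayes with a tissue term over 12 arrays, the tissues were compared over 42 arrays with group as a term, and differences between tissues were tested by interaction. Calls used an unadjusted P below 0.05 and a Benjamini-Hochberg adjusted P below 0.05. Scripts were tested on simulated data. Figures were drawn with matplotlib 3.10.9.

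Named were all 10 members, pathway genes that passed after adjustment or had the smallest P in a direction, the most similar gene of each member, tissue markers and the nonagouti gene. Members, lists and tests were chosen with earlier results of these data known. The alternatives were another offset, the scanner's processed signal at a common 75th percentile, normalization within tissue, the authors' table, no filter, the brightest probe, 14 means, no tissue term, each tissue alone, slide and replicate number as blocks, and each array left out. A batch term for slides 1, 3 and 11, the use of probes above background only, the fits without healthy aorta replicate 1 or diabetic aorta replicate 2, and the brightest probe in each tissue alone were chosen after the data were seen.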

Additional observations from a re-analysis of the deposited data

Results flagged for a closer look

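The Ext1 change in C vs G differed between the tissues, by a muscle minus aorta value of -1.28 on the log2 scale. The interaction of tissue and group passed after adjustment in the fit of all 42 arrays (limma adjusted P = 0.04853) but not in that of the 12 arrays compared (0.1218). All 3 macroangiopathy arrays lay above the healthy ones in aorta and below them in muscle.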

How the results depend on the processing

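Of 387 alternative values for the called members, the lowest and highest with an array left out included, 305 kept their direction and side of the threshold, 77 kept only the direction, and 5 reversed, all between the tissues: Glce was at -0.15 with the processed signal and -0.12 in the huoxue arrays alone, Ndst1 at 0.17 with the brightest probe, Ndst3 at -0.02 in the macroangiopathy arrays alone, and Ndst2 at -0.02 in the rosiglitazone arrays alone. Ext2 and Extl3 against healthy mice, and B3galt6 and Ndst3 in C vs A, were called under every alternative except fits of a single tissue and, for Extl3 in A vs G, 1 other. Of 38 values within a slide, 25 lay within the spread between arrays of the value of the same tissue and 13 did not. The sign differed in 8, none of them called and none over 0.10 in size in the tissue fit. Ndst3 in muscle, untested there, is not among the 38.

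Counts of members called changed as follows, and the cause was not tested. B vs C gave 0 in place of 1 with an offset of 50, the processed signal, the authors' table, the brightest probe, 14 means, no tissue term, muscle alone, slide as a random block, the replicate block and the batch term. D vs C gave 1 in place of 2 with an offset of 50, the processed signal and 14 means, and 0 in either tissue alone. C vs A gave 1 in aorta and 0 in muscle. A vs G gave 1 in muscle, and C vs G gave 1 in muscle. With 14 means, fitted on 42 arrays in place of 12, A vs G gave 3 and C vs G 4, beside 34.1% and 34.9% of all genes, and the batch term in that fit gave 6 and 5, beside 32.2% and 28.5%. E vs C gave 1 in aorta. F vs C gave 2 in place of 4 without the tissue term and with the replicate block, 1 in aorta, 3 with 14 means (7.51% of genes) and 1 with the batch term added to them (8.23%). Between the tissues the count of 7 became 0 in healthy arrays alone, 2 in diabetic or SHENQI arrays, 3 in rosiglitazone arrays and 4 in macroangiopathy, yangyinyiqi or huoxue arrays. With each array left out, the counts ran from 2 to 2 in A vs G and C vs A, 2 to 3 in C vs G, 0 to 1 in B vs C, 0 to 2 in D vs C, 3 to 5 in E vs C, 2 to 4 in F vs C and 7 to 7 between the tissues. The 3 calls in C vs G came without healthy muscle replicate 1 (Ndst3 at -0.48).

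By limma, 0 of 70 tissue differences passed after adjustment, 5 at an unadjusted P below 0.05, and 1 after adjustment with 14 means. Of all genes, 0 passed after adjustment in C vs A, B vs C and D vs C, and 11 of 14804 in A vs G. The counts were 17 of 15734 in C vs G, 239 of 15834 in F vs C and 479 of 15719 in E vs C. Few genes of any kind passed, so the 0 is not particular to the members. Shares of all genes without adjustment and with 14 means were not counted. Correlations of same-numbered deviations ran from -0.54 to 0.60 between groups and from -0.36 to 0.18 between tissues. These values cannot show whether both tissues came from the same mice, since different tissues of 1 mouse need not deviate together. The replicate block left 2 called in D vs C and in each comparison among groups A, C and G, 4 in E vs C, and 7 between the tissues. Dim probes limit Ndst3 in muscle, where 12 of 21 arrays were not well above background.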
